A study of Mus musculus with 10 samples.

Results

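Tuft cells are rare chemosensory cells of the gut epithelium. They sense luminal signals through a taste-like cascade, release a cytokine that reaches innate lymphoid cells, and make lipid mediators. Chromatin accessibility was examined here at 8 genes used to define these cells, out of 21938 protein-coding genes, of which 17290 had a peak in at least 1 library. The 8 were named by their known use in tuft cells and not by any measured value. They are the transcriptional regulators *Pou2f3*, which tuft cells require to form, and *Gfi1b*, a transcriptional repressor, the marker kinase gene *Dclk1*, the cation channel gene *Trpm5*, the cytokine gene *Il25*, the enzyme genes *Ptgs1* and *Alox5*, which start prostaglandin and leukotriene synthesis, and *Rgs13*, a regulator of G-protein signalling. Peaks were collected over each gene body with 5 kb on either side and merged across libraries into 22 sites, out of 85680 such consensus regions in all.

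The data were ATAC-seq peak lists of mouse colon organoids, an assay in which a transposase cuts and tags open chromatin. WT and AHR KO organoids were compared in WENR, a Wnt3a-conditioned medium with EGF, Noggin and R-spondin1 that keeps cells proliferating, and in d4 ENR, ENR for 4 days, in which they differentiate. WENR also held SB202190, the ALK5 inhibitor A83-01 and nicotinamide, which ENR lacked together with Wnt3a, so the parts of these agents cannot be told apart. WT WENR had 2 libraries, AHR KO WENR 3, WT d4 ENR 3 and AHR KO d4 ENR 2. AHR KO organoids came from C57BL/6 mice with floxed *Ahr* and a Cre driven by the Villin promoter, which acts in the gut epithelium, and WT organoids from their wildtype littermates, all grown from colon crypts. The labels do not say whether libraries came from separate animals, so p-values measure the spread between these libraries, which may be technical. Peaks rested on 41686181 to 49126792 fragments per library in WENR and 30354729 to 36307860 in d4 ENR. The estimated share of fragment coverage inside peaks was 63.0 to 68.6% in WENR, 14.1 to 30.9% in WT d4 ENR and 33.8 to 44.2% in AHR KO d4 ENR. WT d4 ENR replicate 1 stood apart with the shortest list, 33433 peaks against 47898 to 65308 in the other libraries. All 10 epithelial marker genes had a promoter peak in all 10 libraries, while 10 of 12 leukocyte and 5 of 8 stromal and vascular markers had none in any library. The exceptions were *Cd68* in 9 and *Kit* in 2 libraries, and *Pdgfra* in 10, *Pdgfrb* in 5 and *Acta2* in 5. *Ahr* itself had a promoter peak in all 10 libraries and was covered at 2142 and 2544 bp in WT WENR, 5130 to 7017 bp in AHR KO WENR, 1216 to 1595 bp in WT d4 ENR, and 3250 and 3541 bp in AHR KO d4 ENR. Coverage was thus higher in every AHR KO library, and a peak list does not show the deletion itself.

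Of the 22 sites, the sequence of 4 that carry results below is shown, taken from RefSeq GRCm38.p6, plus strand, without annotated exons. They are the intronic *Dclk1* site called in every library, the *Trpm5* start called only in AHR KO among d4 ENR libraries, the *Ptgs1* start called only in WENR, and the *Rgs13* intron called only in d4 ENR. Capitals mark matches, on either strand, to the motifs ATGCAAAT (POU octamer), GCGTG (AHR:ARNT core), TGANTCA (AP-1), CATTCC (TEAD), CAAAGTCCA (HNF4) and GCAATAAA (CDX).
Dclk1 site 2, chr3:55369301-55369600: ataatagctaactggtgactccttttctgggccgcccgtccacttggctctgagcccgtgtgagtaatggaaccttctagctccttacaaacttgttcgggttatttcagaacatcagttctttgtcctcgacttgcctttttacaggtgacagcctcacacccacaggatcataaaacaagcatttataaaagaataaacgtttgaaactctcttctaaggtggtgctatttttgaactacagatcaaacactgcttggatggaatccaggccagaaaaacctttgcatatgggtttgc
Trpm5 site 1, chr7:143094643-143094942: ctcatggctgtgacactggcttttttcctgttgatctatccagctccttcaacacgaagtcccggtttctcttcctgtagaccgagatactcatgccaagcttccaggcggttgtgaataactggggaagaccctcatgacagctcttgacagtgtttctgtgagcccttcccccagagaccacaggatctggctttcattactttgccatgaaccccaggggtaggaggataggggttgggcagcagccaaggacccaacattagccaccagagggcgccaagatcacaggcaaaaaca
Ptgs1 site 2, chr2:36230185-36230425: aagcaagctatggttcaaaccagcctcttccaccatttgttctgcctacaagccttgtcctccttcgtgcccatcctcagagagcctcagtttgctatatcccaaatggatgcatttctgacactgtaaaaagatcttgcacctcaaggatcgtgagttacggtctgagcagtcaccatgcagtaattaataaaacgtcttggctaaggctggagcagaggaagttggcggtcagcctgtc
Rgs13 site 1, chr1:144141384-144141683: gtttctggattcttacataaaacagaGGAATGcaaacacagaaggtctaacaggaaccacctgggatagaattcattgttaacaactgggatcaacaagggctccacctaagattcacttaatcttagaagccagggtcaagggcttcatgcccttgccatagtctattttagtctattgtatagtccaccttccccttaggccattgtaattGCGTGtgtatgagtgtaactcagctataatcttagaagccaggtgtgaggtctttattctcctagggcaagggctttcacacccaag
The *Rgs13* sequence held 1 AHR:ARNT core and 1 TEAD match, and the other 3 printed stretches held none of the 6 motifs. The central 300 bases of *Ptgs1* site 2, which run into the exon left out above, held 1 AHR:ARNT core. Over the central 300 bases of all 22 sites, the octamer, the motif class that *Pou2f3* protein binds, was found in 2 (9.09%), against 1.68% of all consensus regions. These were *Pou2f3* site 2, called in 4 libraries, and *Alox5* site 2, called in 1 library. The *Alox5* site is 201 bp long, shorter than the 300 bases searched. The AHR:ARNT core was in 8 sites (36.4%, against 21.9%), the TEAD motif in 4 (18.2%, against 18.3%) and the AP-1 motif in 1 (4.55%, against 19.4%). No site held the HNF4 or CDX strings, which were in 1.23% and 2.51% of all regions. A match is a description of the letters and not a bound site.

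Peaks at tuft cell genes overlapped a promoter of their own gene at 9 of the 22 sites and lay elsewhere at 13. Their rank by −log10 q ran from the 1.16th to the 97.7th percentile of a library's list. The top ranks were those of *Trpm5* site 3, which covers the start of the neighbouring gene *Tssc4*. No other site ranked above the 63.8th percentile. Sites were 162 to 1781 bp long, with a median of 611 bp against 873 bp over all consensus regions. Their midpoints lay in introns at 12 sites, in exons at 3, upstream at 4 and downstream at 3. Only 2 sites were called in all 10 libraries, against 32.9% of all consensus regions. They were 1 in *Dclk1* and *Trpm5* site 3, over the *Tssc4* start. Single-library calls made up 5 sites, and the share of such calls over all consensus regions was not computed. The 7 sites over a start of their own gene included none called in all 10 libraries. *Il25* and *Rgs13* had no peak at any of their own starts in any library.

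**Figure D1:**
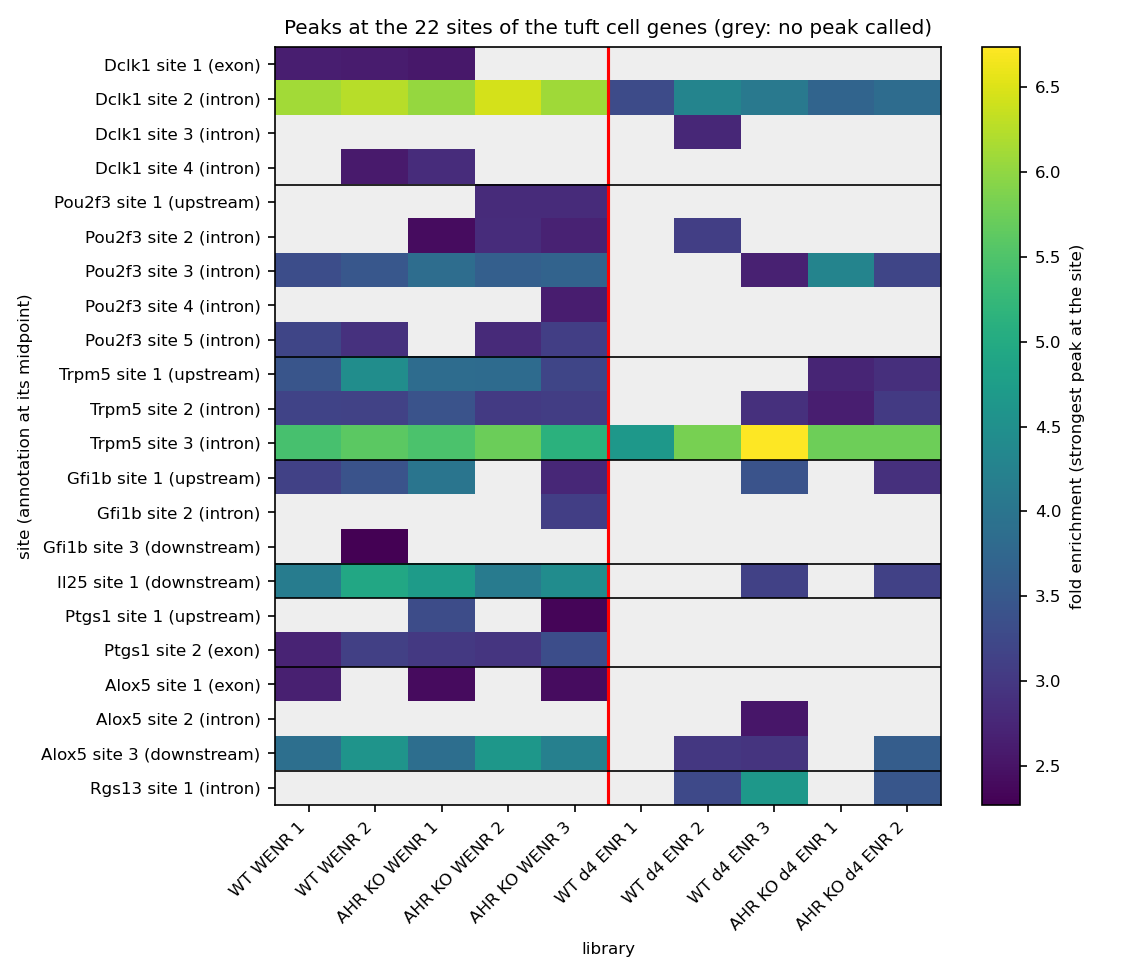
Fold enrichment of the strongest peak at each of the 22 sites (rows) in each of the 10 libraries (columns), with grey where no peak was called and a red line between WENR and d4 ENR. *Dclk1* site 2 and *Trpm5* site 3 are coloured in every column, *Ptgs1* site 2 only left of the line and *Rgs13* site 1 only right of it.

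The first comparison asked how the tuft cell genes changed from WENR to d4 ENR. *Pou2f3*, *Dclk1*, *Trpm5*, *Il25*, *Ptgs1* and *Alox5* were each covered by fewer peak bases in every d4 ENR library than in every WENR library, 6 of the 8 genes against 46.2% of all genes with a peak. None was covered more in every d4 ENR library (0.237% of all genes). These 6 also fell in an exact permutation test within genotypes, at p = 0.02 each, the smallest value that 100 arrangements allow, and 51.3% of all genes did so. Benjamini-Hochberg adjustment over all 17290 genes gave 0.0387. The genes kept a median of 28.5% of their WENR coverage, over the 7 with any WENR peak, against 71.6% for all genes. The 8 genes also had less coverage in WENR, with a median of 963 bp against 2228 bp for all genes with a peak. The part of this lower coverage in the difference was not tested. The lists are of bulk organoids and do not show which cells gave these peaks. Fewer tuft cells, less accessibility per cell and the lower share of coverage in peaks in d4 ENR cannot be told apart.

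The count of 6 changed most with the length of the lists. With every list shortened to its 33433 strongest peaks, 1 of the 8 genes, *Dclk1*, was still lower in every d4 ENR library (28.1% of all genes), and 1 passed the permutation test. Per megabase of peaks in the library, 1 gene without overlap remained, *Ptgs1* (9.73% of all genes), while 5 genes fell at p of 0.05 or less and *Trpm5* did not (exact permutation p = 0.14). Other settings kept more of the 6. A −log10 q of 5 or more kept 4 (*Dclk1*, *Trpm5*, *Il25* and *Alox5*), gene bodies alone kept 4 and windows with 20 kb on either side kept 5. For these settings, and for the permutation counts with shortened lists and per megabase, the share of all genes was not computed. Of the 22 sites, 11 to 16 were called in each WENR library. In d4 ENR, 2, 6 and 9 were called in WT replicates 1 to 3 and 5 and 9 in AHR KO replicates 1 and 2. These libraries had 14.1, 24.4, 30.9, 33.8 and 44.2% of their coverage in peaks, an order that the site counts did not follow. Covered bases summed over the 8 genes did follow it, at 1590, 3095, 3791, 4068 and 6968 bp in the same libraries. The part of peak signal in the fall was not tested beyond these values.

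**Figure D2:**
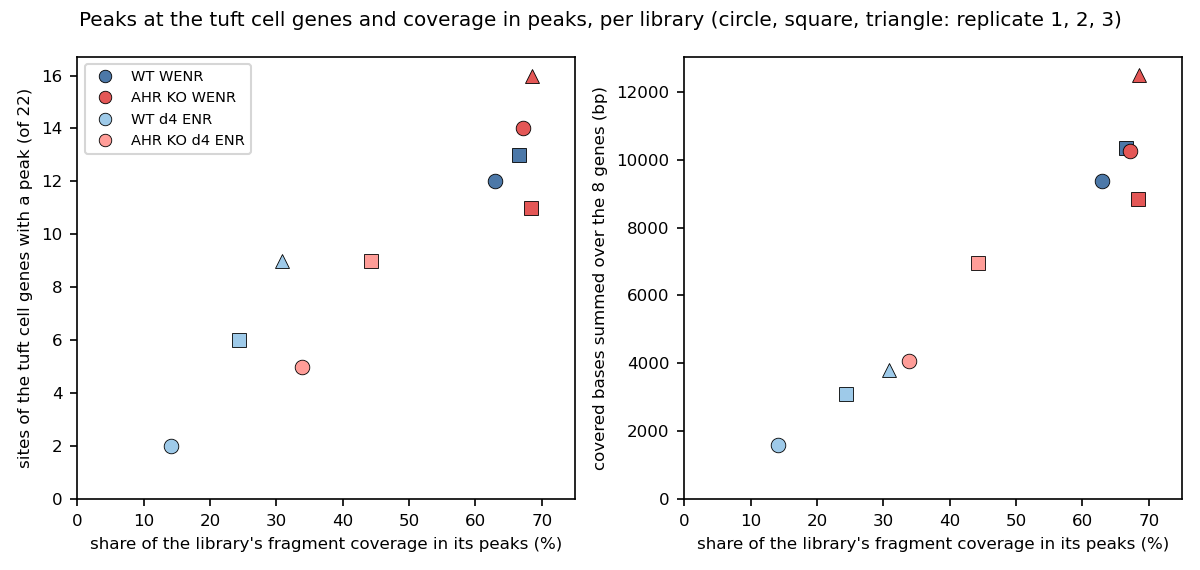
Number of tuft cell gene sites with a peak (left) and covered bases summed over the 8 genes (right, bp) against the estimated share of fragment coverage in peaks (%), 1 point per library coloured by group. WENR libraries lie at 63.0 to 68.6% with 8831 to 12483 bp, and d4 ENR libraries at 14.1 to 44.2% with 1590 to 6968 bp.

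*Pou2f3* (ENSMUSG00000032015.16; chromosome 9, 43123939 to 43210369, minus strand) encodes the octamer-binding factor at the head of the tuft cell programme. Peaks covered 834 and 930 bp in WT WENR, 1135, 1572 and 1866 bp in AHR KO WENR, 0, 192 and 252 bp in WT d4 ENR, and 820 and 336 bp in AHR KO d4 ENR. All d4 ENR libraries lay below all WENR libraries, with a mean difference of -840 bp. The strongest of its 5 sites lay in intron 3 (43149911 to 43150807), called in all 5 WENR libraries at 3.33 to 3.87 fold enrichment and in 3 d4 ENR libraries at 2.68 to 4.28. Fold enrichment is the mean fragment pileup of a peak divided by the background around it. Its 4 other sites were called in 1 to 4 libraries each, and 1 d4 ENR library held a peak at any of them. With lists of equal length the medium difference moved to 205 bp (exact permutation p = 0.8), and among peaks with a −log10 q of 5 or more to -548 bp (p = 0.06).

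*Gfi1b* (ENSMUSG00000026815.14; chromosome 2, 28609450 to 28621982, minus strand) did not pass the test. Coverage was 412 and 1058 bp in WT WENR, 310, 0 and 1822 bp in AHR KO WENR, 0, 0 and 435 bp in WT d4 ENR, and 0 and 428 bp in AHR KO d4 ENR. The media overlapped (difference -543 bp, p = 0.24, adjusted p = 0.287 by exact permutation). A site 725 bp upstream of the start (28622323 to 28623091) was called in 4 WENR and 2 d4 ENR libraries, and its intron 1 and downstream sites in 1 WENR library each. Within 20 kb on either side the fall was larger, at -1705 bp (exact permutation p = 0.04).

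*Dclk1* (ENSMUSG00000027797.15; chromosome 3, 55242364 to 55539068, plus strand) encodes the kinase by which tuft cells are commonly stained. Coverage was 1735 and 2100 bp in WT WENR, 1557, 997 and 1066 bp in AHR KO WENR, 503, 699 and 479 bp in WT d4 ENR, and 590 and 544 bp in AHR KO d4 ENR. The media did not overlap (difference -998 bp), and in d4 ENR the genotypes did. Its start (55241897 to 55242978, exon 1) was called in 3 WENR libraries at 2.56 to 2.65 fold enrichment and in none of d4 ENR, and a site in intron 16 in 2 WENR libraries. Site 2, in intron 3 and 127086 bp from the start (55368918 to 55369983), was called in all 10 libraries. With 20 kb on either side of the gene the difference was -569 bp and did not pass (exact permutation p = 0.18).

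*Dclk1* site 2 allowed a graded comparison. Fold enrichment was 6.12 and 6.25 in WT WENR, 6.03, 6.45 and 6.09 in AHR KO WENR, 3.29, 4.28 and 4.08 in WT d4 ENR, and 3.70 and 3.84 in AHR KO d4 ENR. Every d4 ENR value was below every WENR value, as in 12.8% of the regions called in all 10 libraries. The difference of -0.70 on the log2 scale compared with a median of -0.04 over those regions, but did not pass adjustment (exact permutation p = 0.02, adjusted p = 0.0862). Pileup per 1000000 fragments fell by 1.12 on the log2 scale (adjusted p = 0.0239 by exact permutation), where the median region fell by 1.13 and 81.5% of regions were lower in every d4 ENR library. Genotypes at this site in d4 ENR differed by -0.03 (log2 fold enrichment, exact permutation p = 1). With lists of equal length or a −log10 q of at least 5 the site had a peak in 9 libraries, and with at least 50% of it covered in 8, so the comparison could not be made.

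*Trpm5* (ENSMUSG00000009246.14; chromosome 7, 143069153 to 143094642, minus strand) encodes the channel that depolarises the cell downstream of taste receptors. Coverage was 3844 and 3883 bp in WT WENR, 3969, 3941 and 4265 bp in AHR KO WENR, 1087, 1143 and 1422 bp in WT d4 ENR, and 2658 and 3699 bp in AHR KO d4 ENR. The d4 ENR libraries lay below all WENR libraries by a mean of 1763 bp, and the WT d4 ENR libraries below the AHR KO ones. It had 3 sites. Site 1, at the start (143093990 to 143095349), was called in all 5 WENR libraries at 3.21 to 4.46 fold enrichment. Site 2, in intron 5 over an internal start (143086121 to 143087564), was called in all 5 WENR libraries at 3.02 to 3.42 and in 3 d4 ENR libraries at 2.64 to 3.02. Site 3 (143068618 to 143070232) covered the last introns and the start of *Tssc4*, a neighbouring gene, and was called in all 10 libraries at 5.12 to 5.74 in WENR and 4.65 to 6.73 in d4 ENR, a difference of 0.06 on the log2 scale (exact permutation p = 0.58, adjusted p = 0.763). Without peaks at starts of other protein-coding genes, the same 6 genes were lower in every d4 ENR library.

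*Il25* (ENSMUSG00000040770.5; chromosome 14, 54932695 to 54935837, plus strand) encodes the cytokine that activates group 2 innate lymphoid cells. Coverage was 340 and 576 bp in WT WENR, 450, 322 and 419 bp in AHR KO WENR, 0, 0 and 239 bp in WT d4 ENR, and 0 and 239 bp in AHR KO d4 ENR. All of it came from 1 site downstream of the gene (54939338 to 54939932), 6940 bp from the *Il25* start and 1854 bp from that of *Cmtm5*. Fold enrichment there was 4.14 to 4.95 in the 5 WENR libraries and 3.14 and 3.13 in the 2 d4 ENR libraries with a peak. The site lies in the promoter window of the predicted gene *Gm49130*, and the gene body of *Il25* alone held no peak in any library.

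*Ptgs1* (ENSMUSG00000047250.13; chromosome 2, 36230426 to 36252272, plus strand) encodes cyclooxygenase 1. It was covered at 318 and 298 bp in WT WENR, 963, 490 and 1146 bp in AHR KO WENR, and 0 bp in all 5 d4 ENR libraries. No other member lost all its peaks, which 4.09% of all genes did. The site over its start (36230185 to 36230878) was the only 1 of the 22 called in all 5 WENR and no d4 ENR library, against 5.46% of all consensus regions. Its fold enrichment was 2.72 and 3.11 in WT WENR and 3.02, 2.96 and 3.33 in AHR KO WENR. In the lists ranked by −log10 q its median WENR position was the 14.0th percentile. Among regions called in all 5 WENR libraries, 8.95% had no d4 ENR peak and 54% had one in all 5. Among those with a median position in the lowest 25 percentiles, as for *Ptgs1* site 2, 31.3% had no d4 ENR peak. A second site 3249 bp upstream (36226930 to 36227425) was called in AHR KO WENR replicates 1 and 3. The *Ptgs1* difference was -116 bp with a −log10 q of at least 5 and 0 bp with lists of equal length (exact permutation p = 1 in both).

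*Alox5* (ENSMUSG00000025701.12; chromosome 6, 116410077 to 116461178, minus strand) encodes 5-lipoxygenase. Coverage was 1904 and 1496 bp in WT WENR, 1864, 1509 and 1899 bp in AHR KO WENR, 0, 646 and 419 bp in WT d4 ENR, and 0 and 1258 bp in AHR KO d4 ENR. Most of it lay at a downstream site (116405609 to 116407389), 1322 bp from the start of *March8*, called in all 5 WENR and 3 d4 ENR libraries. Its own start (116460812 to 116461224) was called in 3 WENR libraries at 2.41 to 2.67 fold enrichment and in no d4 ENR library. Over the gene body alone the difference was -144 bp and did not pass (exact permutation p = 0.24).

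*Rgs13* (ENSMUSG00000051079.8; chromosome 1, 144138654 to 144177372, minus strand) had a peak in d4 ENR alone and did not pass the test. It was covered at 0 bp in all 5 WENR libraries, 0, 415 and 545 bp in WT d4 ENR, and 0 and 464 bp in AHR KO d4 ENR. Of all genes, 1.54% likewise had no WENR peak. The difference of 276 bp gave p = 0.24 and an adjusted p of 0.287 by exact permutation. The peak lay in intron 4 (144141238 to 144141828), with a fold enrichment of 3.25, 4.66 and 3.46 in WT d4 ENR replicates 2 and 3 and AHR KO d4 ENR replicate 2. It was the only member site called in 3 d4 ENR and no WENR library (2.57% of consensus regions called in 3 or more). The 2 libraries without it had 33433 and 49339 peaks, and those with it 47898 to 58359. *Ptgs1*, *Alox5* and *Rgs13* are also used in leukocytes, whose 12 marker genes summed to 11789 to 12793 bp in WENR and 5749 to 9784 bp in d4 ENR. Of these, 10 had no promoter peak in any library, *Ptprc*, *Cd3e*, *Itgam* and *Spi1* among them, *Cd68* had one in 9 libraries and *Kit* in 2. The *Kit* window was covered at 333 bp in WT d4 ENR replicate 3 and 615 bp in AHR KO d4 ENR replicate 2, and at 0 bp in the other 8 libraries. These 2 libraries had the longest d4 ENR lists, at 54768 and 58359 peaks. Both also held the *Rgs13* peak, as did WT d4 ENR replicate 2, where *Kit* was covered at 0 bp. The part of leukocytes in these values was not tested.

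**Figure D3:**
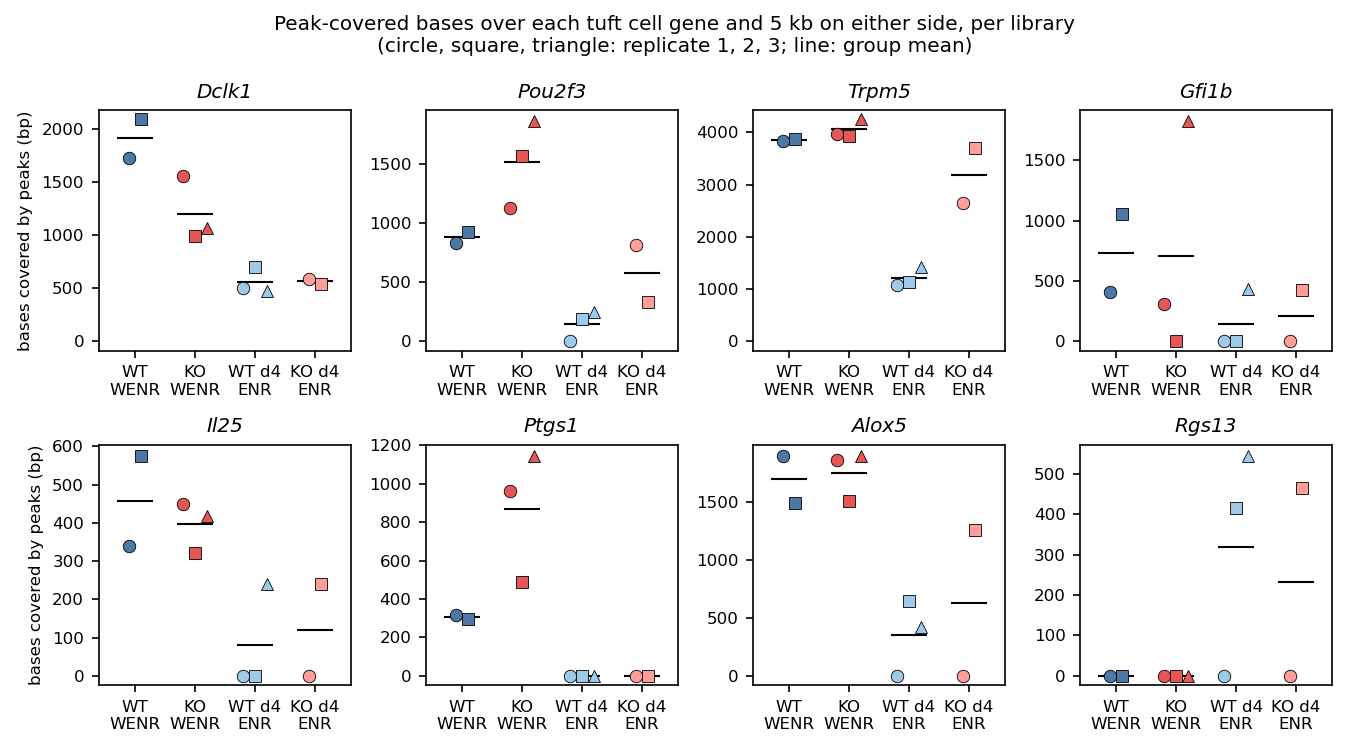
Bases covered by peaks (bp) over each gene with 5 kb on either side, 1 point per library in the 4 groups, with lines at the group means. The d4 ENR points of *Pou2f3*, *Dclk1*, *Trpm5*, *Il25*, *Ptgs1* and *Alox5* lie below all their WENR points, those of *Gfi1b* overlap, and those of *Rgs13* lie at or above 0 where WENR lies at 0.

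Across the 22 sites, 10 were called in WENR and in no d4 ENR library, against 22.6% of all consensus regions. Another 9 were called in both media and 3 in d4 ENR alone. Of all 85680 regions, 75585 were called in at least 1 WENR library and 66344 in at least 1 d4 ENR library. The shares of all regions in both media and in d4 ENR alone were not computed. The 8 sites called in all WENR libraries were then placed in bins of 25 percentiles by their median WENR position. In the lowest bin, *Ptgs1* site 2 had no d4 ENR peak and *Trpm5* site 2 had 3, where 7.29% of regions had all 5. The second bin held *Pou2f3* site 3, *Trpm5* site 1, *Il25* site 1 and *Alox5* site 3, each with 2 or 3 d4 ENR peaks, where 14.4% of regions had none and 20.9% all 5. *Dclk1* site 2 in the third bin and *Trpm5* site 3, over the *Tssc4* start, in the top bin were called in all d4 ENR libraries. So were 60.9% and 96.8% of regions in these bins.

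The second comparison asked whether the tuft cell genes differed between AHR KO and WT organoids. In d4 ENR, *Trpm5* and *Pou2f3* were covered more in both AHR KO libraries than in all WT libraries, 2 of the 8 genes against 54.4% of all genes, and no member was covered less (0.237% of all genes). The mean of *Trpm5* was 1217 ± 179 bp in WT (SD, n = 3) and 3179 ± 736 bp without AHR (SD, n = 2). The mean of *Pou2f3* was 148 ± 132 bp in WT (SD, n = 3) and 578 ± 342 bp without AHR (SD, n = 2). With 2 against 3 libraries the smallest exact permutation p is 0.2, which both genes reached. The other 6 genes overlapped between genotypes in d4 ENR. The AHR KO d4 ENR libraries also had more of their coverage in peaks, 33.8 and 44.2% against 14.1 to 30.9%, and the part of this in the difference was not tested. Per megabase of peaks both genes kept their order, where 9.76% of all genes did, and with lists of equal length *Trpm5* did, with 47.5% of all genes. In that setting the *Trpm5* difference was 198 bp instead of 1961 bp. Site 3, over the *Tssc4* start, was by itself covered at 1087 to 1143 bp in the WT d4 ENR libraries and at 1204 and 1407 bp without AHR, which accounts for that 198 bp. Without peaks at starts of other protein-coding genes both genes kept their order.

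At the *Trpm5* start, both AHR KO d4 ENR libraries had a peak (2.74 and 2.86 fold enrichment) and no WT d4 ENR library did. This was the only member site of that kind, against 3.67% of the regions called in d4 ENR. Covered bases at the site were 450 and 1047 bp in AHR KO d4 ENR and 1044 to 1360 bp in WENR. The call rested on weak peaks, and no site remained with a −log10 q of at least 5 or lists of equal length. Without WT d4 ENR replicate 3, *Trpm5* site 2 and *Pou2f3* site 3 also met the rule, 3 sites in all.

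In WENR, *Pou2f3*, *Trpm5* and *Ptgs1* were covered more in every AHR KO than in every WT library, 3 of 8 genes against 11.8% of all genes, and *Dclk1* less, 1 of 8 against 11.1%. *Pou2f3* averaged 882 ± 67.9 bp in WT (SD, n = 2) and 1524 ± 368 bp without AHR (SD, n = 3). For *Ptgs1* the values were 308 ± 14.1 bp in WT and 866 ± 339 bp without AHR, and for *Dclk1* 1918 ± 258 bp and 1207 ± 305 bp. *Trpm5* differed by 195 bp only, and each of the 4 had the smallest p of 0.2 by exact permutation. No gene kept such an order with a −log10 q of at least 5 or lists of equal length. Leaving out WT WENR replicate 1, WT WENR replicate 2 or AHR KO WENR replicate 3 raised the genes lower in every AHR KO library from 1 to 2, adding *Il25*, *Alox5* or *Gfi1b*.

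*Pou2f3* had weak additional sites in AHR KO WENR. Site 2, at an internal start in intron 1, was called in all 3 AHR KO and no WT WENR library at 2.41, 2.83 and 2.70 fold enrichment, the only such member site (1.34% of the regions called in WENR). Site 1, 866 bp upstream of the gene (43211085 to 43211386), was called in AHR KO WENR replicates 2 and 3 at 2.82 and 2.83. In d4 ENR, site 2 was called in WT replicate 2 alone, at 3.09.

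With genotypes permuted within each medium, *Pou2f3* was higher in AHR KO by 536 bp and *Trpm5* by 1078 bp (exact permutation p = 0.02 each, adjusted p = 0.304), 2 of 8 genes against 11.9% of all genes above WT at p of 0.05 or less. Neither passed adjustment over all genes. A genotype difference that changed between media at p of 0.05 or less was found for 0 of the 8 genes and 11.2% of all genes, and *Dclk1* came closest (718 bp, p = 0.1, adjusted p = 0.419 by exact permutation).

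A wider list of 45 other genes used in tuft cells was read in the same way. Of these, 42 had a peak and *Alox5ap*, *Chat* and *Il13ra2* had none in any library. Lower coverage in every d4 ENR library was found for 21 of the 42, higher coverage for 0, and 23 fell and 0 rose at an exact permutation p = 0.02. Over all genes with a peak 46.2% were lower and 51.3% fell in the same way, so these shares were near the background. The list kept a median of 67.3% of its WENR coverage, against 71.6% for all genes and 28.5% for the 8 genes. The median WENR coverage was 2638 bp for the wider list, 963 bp for the 8 genes and 2228 bp for all genes with a peak. Transcription and fate genes were lower in 2 of 6, taste receptor and signalling genes in 5 of 12, eicosanoid genes in 3 of 5, cytoskeletal and kinase adaptor genes in 8 of 15, and cytokine and receptor genes in 3 of 4. With lists of equal length the count of 21 became 7 (28.1% of all genes), and it was also 7 per megabase of peaks (9.73%). It was 22 at a −log10 q of 5 or more, 15 in gene bodies alone and 25 with 20 kb on either side. The share of all genes was not computed for these settings. In d4 ENR 22 of the 42 were covered more in every AHR KO than in every WT library, near the 54.4% of all genes.

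The largest falls were in *Tbxas1* (thromboxane synthase), from 9762 to 5345 bp, *Pla2g4a* (the phospholipase that releases arachidonic acid), from 8768 to 4447 bp, and *Itpr3* (an inositol trisphosphate receptor), from 8452 to 5184 bp. Each had an adjusted p of 0.0387 by exact permutation. *Tslp*, an epithelial cytokine gene, and *Sh2d7* had no d4 ENR peak in any library. These were 2 of the 42 genes, near the 4.09% of all genes with a peak. The *Tslp* difference was -728 bp (p = 0.02) and that of *Sh2d7* was -301 bp (p = 0.06), both by exact permutation. The largest rises did not pass, with *Sucnr1* at 59.8 bp and *Tas1r3* at 56.5 bp, each from 1 peak in 1 AHR KO d4 ENR library, and *Sox4* at 50.3 bp (p = 0.8, 0.8 and 0.78 by exact permutation).

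**Figure D4:**
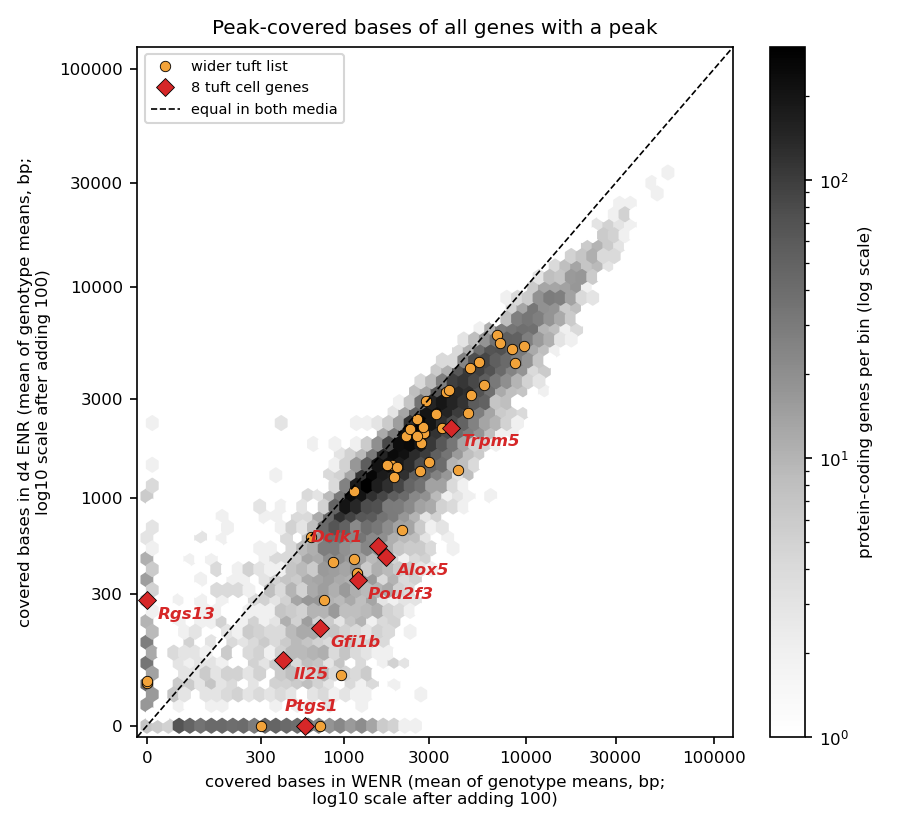
Mean covered bases in WENR (x) and d4 ENR (y) of all 17290 genes with a peak, as bins shaded by gene number, with the 8 tuft cell genes (diamonds) and the wider list (circles), both axes in bp on a log scale after adding 100. The diamonds lie below the line of equal coverage except *Rgs13*. Except for *Trpm5*, they also lie below the median WENR coverage of all genes with a peak, 2228 bp.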

How the data were processed

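Organoids of each genotype were profiled by Omni-ATAC-seq on sorted live cells. The authors trimmed and filtered reads, aligned them to GRCm38 with BWA and called broad peaks per library (MACS 2.2.7.1, paired-end fragments, no control library, q of 0.1 for the broad and 0.05 for the narrow step). For each peak the authors deposited the pileup, a coverage signal not scaled for library size, the fold enrichment as a ratio over a local background of 10000 bp, and −log10 of the p and q values. Where no peak is listed, the region missed the threshold of the caller and need not have been closed.

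Peaks sharing at least 1 bp across libraries were merged into sites. Covered bases were counted over GENCODE M21 gene bodies with 5 kb on each side, promoters were 1 kb upstream to 100 bp downstream of a start, and the share of coverage in peaks was pileup times length over fragments times their mean length. Exact permutation tests were 2-sided, taking 2 times the smaller tail, with libraries permuted within genotypes or within media (100 arrangements), or 2 against 3 libraries (10 arrangements, smallest p 0.2), and adjusted by Benjamini-Hochberg over 17290 genes or over the 28205 regions called in all 10 libraries. Means over a medium weight the genotypes equally. The lists hold no read counts, and the count test of the study was therefore not run. The procedures were tested on simulated data.

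The 8 genes and the lists were chosen with earlier results of these data known, and the printed sequences after their values were seen. Some items are not reported here. All 8 genes were described. From the wider list the 3 largest falls, the 3 largest rises and genes without a peak were named, and *Tslp* and *Sh2d7* were added after their values were seen. Alternatives were lists of equal length, a −log10 q of at least 5, gene bodies alone or with 20 kb, coverage per megabase of peaks, peaks at starts of other genes left out, at least 50% of a site covered, pileup per 1000000 fragments, a block for the replicate number, and leaving out single libraries. Python 3.11.15, numpy 2.4.6, pandas 2.3.3 and matplotlib 3.10.9 were used.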

Additional observations from a re-analysis of the deposited data

How the results depend on the processing

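Most counts changed with the length of the peak lists. With lists of equal length the members lower in every d4 ENR library went from 6 to 1 (4 to 6 in the other settings with all libraries except coverage per megabase), those higher in AHR KO in d4 ENR from 2 to 1, those higher or lower in AHR KO in WENR from 3 and 1 to 0, the wider list from 21 to 7, and all 3 counts of sites from 1 to 0. A −log10 q of at least 5 gave 3 sites called in all WENR and no d4 ENR library, at *Trpm5*, *Il25* and *Alox5*, in place of *Ptgs1*, and 0 for both WENR genotype counts, for the AHR KO-only site in d4 ENR and for the site with lower fold enrichment. Per megabase of peaks 1 member and 7 genes of the wider list were lower in every d4 ENR library. With at least 50% of a site covered, the site with lower fold enrichment was lost (0), the WENR-only site was at *Il25* and the AHR KO-only site was *Trpm5* site 2. At a −log10 q of at least 5 the 2 members higher in AHR KO in d4 ENR were *Dclk1* and *Trpm5*. The *Trpm5* difference was then 198 bp and came from site 3, over the *Tssc4* start. The share of all genes was not computed in this setting. Leaving out 1 library gave 1 to 2 members lower in AHR KO in WENR, 1 to 2 sites called in all WENR and no d4 ENR library (2 without AHR KO WENR replicate 1, adding *Pou2f3* site 5) and 1 to 3 AHR KO-only sites in d4 ENR. The 6 members lower in d4 ENR were the same genes whichever library was left out.

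Of single genes, the medium difference of *Pou2f3* turned to 205 bp with lists of equal length. Genotype differences in d4 ENR, none of which can pass 0.05 with 2 against 3 libraries, changed sign for *Dclk1* (-211 bp with lists of equal length, -5.79 bp per megabase of peaks, -34.0 to 76.0 bp with 1 library left out), *Alox5* (-67.0 bp in the gene body, -355 to 903 bp), *Gfi1b* (-145 to 283 bp), *Il25* (-79.7 to 159 bp) and *Rgs13* (-320 to 144 bp). The cause was not tested.

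The labels do not say whether equal replicate numbers mark pairs, and the numbers were not taken as pairs in the main tests. Correlations of the deviations of same-numbered libraries ran from -0.15 to 0.11 between media and from -0.02 to 0.38 between genotypes. In a group of 2 libraries the deviations mirror each other, so these correlations cannot decide whether the numbers are pairs. With the replicate block the same direction in every pair was found for 6 members between media and 2 between genotypes in d4 ENR, and 3 sites were called in AHR KO and not in WT in both d4 ENR pairs. The smallest p of the block was 0.125, so no gene could pass. In it the genotype difference was -34.0 bp for *Dclk1* and 24.5 bp for *Rgs13*.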
